A study of Homo sapiens with 4 samples.

Results

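The enzymes described here are the 10 proteins named by the genes FASN, ACACA, ACLY, ACSS2, SCD, ELOVL1, ELOVL6, FADS1, FADS2 and ACSL3, which build, lengthen, desaturate and activate fatty acids. They were chosen by function, with earlier results of these data known. Their values were taken from the deposited files by NCBI Gene ID, as 10 of the 18882 gene IDs listed in any library. Their IDs, in that order, are 2194, 31, 47, 55902, 6319, 64834, 79071, 3992, 9415 and 2181, and all 10 were listed in each of the 4 libraries. The study asked what a raised level of neuropilin-1 (NRP-1), a co-receptor for vascular endothelial growth factor and semaphorins, does to BT-474, an established luminal B-like breast cancer line. Poly(A) RNA was sequenced from BT-474 control cells, whose genotype is given as wild-type (replicates 1 and 2), and from BT-474 NRP-1 cells (replicates 2 and 3). The BT-474 NRP-1 cells are a stable line, transfected with an NRP-1 expression plasmid of the pPTuner IRES2 type and selected with Geneticin, from which colonies were isolated. The control libraries are not labelled as vector-transfected, so NRP-1, the plasmid, the selection and the isolation of colonies cannot be told apart in this comparison. Nothing in the labels says that libraries of a group came from separate cultures, so p-values measure only the spread between these samples, which may be technical.

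Cells make fatty acids from cytosolic acetyl-CoA, which ACLY releases from citrate and ACSS2 forms from acetate. ACACA carboxylates acetyl-CoA to malonyl-CoA, and FASN joins these units into palmitate. Elongases then lengthen the chain, SCD places a double bond in saturated chains, FADS1 and FADS2 desaturate polyunsaturated chains, and acyl-CoA synthetases such as ACSL3 attach coenzyme A so that a fatty acid can be used. Transcription of many of these genes is known to be driven by sterol regulatory element-binding proteins, encoded by SREBF1 and SREBF2, and lipogenic enzymes such as FASN are known for their high levels in HER2-positive breast cancer cells, to which BT-474 belongs.

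The RNA of 8 of the 10 enzymes lay between 1.67-fold and 2.99-fold higher in BT-474 NRP-1 cells, with every NRP-1 library above every control library. Over all tested genes, 27.9% had both NRP-1 libraries above both control libraries in library-size scaled counts. Of the 8 enzymes, ACLY, FASN and FADS2 rose in edgeR's quasi-likelihood test, with p-values adjusted over all genes by the Benjamini-Hochberg method. At an adjusted p under 0.05, that test called 0.413% of all tested genes higher. SCD, the highest ratio of the 10, ACACA, FADS1, ELOVL6 and ACSS2 had adjusted p-values from 0.0547 to 0.115 by that test. ELOVL1 and ACSL3 had ratios of 1.14 and 1.05. The 3 calls became 8 with DESeq2, and 0 without a filter on low counts or with limma on log2 FPKM.

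The expected counts, which are the authors' estimates of reads per gene, summed to between 8243595 and 8448926 per library. A filter on low counts left 14298 genes for the test, all 10 enzymes among them, and the median log2 fold change over those genes was 0.02. Between the NRP-1 libraries the enzymes differed by up to 1.69-fold, and between the control libraries by up to 1.33-fold. NRP1 RNA, the check of the labels, was counted at 7 and 8 reads in control cells against 103 and 62 in BT-474 NRP-1 cells. Of 9 luminal epithelial markers all were tested, with 95832 and 99143 summed reads in control and 120849 and 102645 in NRP-1 libraries, and none was called by edgeR (3 at an unadjusted p under 0.05, 1 by DESeq2). The 5 adipocyte markers, which would mark a lipid-storing cell, summed to between 76 and 111 reads. ADIPOQ had 49 and 49 reads in control and 68 and 43 in NRP-1 libraries. PLIN1 had 36 and 54 reads in control and 31 and 17 in NRP-1 libraries (log2 fold change -0.96, edgeR adjusted p = 0.239). LEP had 7 to 15 reads, CIDEC had 0 or 1, and FABP4 was at 0 in all libraries. The 5 leukocyte markers summed to between 531 and 590 reads, nearly all of LYZ (575 and 520 in control, 522 and 558 in NRP-1 libraries), with PTPRC at 9 to 17 reads and CD3E and CD14 at 0 throughout. The 4 endothelial markers summed to 50 and 75 reads in control and 121 and 105 in NRP-1 libraries, where VWF went from 9 and 20 to 47 and 49 (log2 fold change 1.66, edgeR adjusted p = 0.0998). The 7 mesenchymal markers summed to between 1511 and 1884 reads, most of them COL1A1 (1739 and 1740 in control, 1513 and 1357 in NRP-1 libraries), with PDGFRB and DCN at 0 throughout. The mesenchymal marker VIM had 69 and 48 reads in control and 371 and 147 in NRP-1 libraries (log2 fold change 2.08, edgeR adjusted p = 0.0821). The luminal marker GATA3 had 184 and 186 reads in control and 688 and 289 in NRP-1 libraries. Its log2 fold change was 1.34 (edgeR adjusted p = 0.126). ESR1 had 395 and 437 reads in control and 273 and 735 in NRP-1 libraries, which lie on either side of the controls. Of the 9 luminal markers, 7 had a positive and 2 a negative log2 fold change. The part of GATA3, ESR1, VWF and VIM in the enzyme values was not tested.

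The level of each enzyme is given as FPKM, a read count scaled by the length of the transcript and the number of mapped reads, as the authors deposited it, which allows genes to be compared. In control cells FADS2 stood highest at a mean of 195.6 FPKM, followed by SCD at 166.6 and FASN at 143.6. ACACA came next at 70.1 FPKM. The levels of ACSL3 (58.1 FPKM), ACLY (55.4 FPKM) and ACSS2 (54.1 FPKM) followed, and neighbours in that order had overlapping libraries. ELOVL1 (39.0 FPKM), FADS1 (21.5 FPKM) and ELOVL6 (6.42 FPKM) were lowest, each apart from the next. In BT-474 NRP-1 cells SCD headed the order at a mean of 510.4 FPKM and its libraries overlapped those of FADS2 at 464.8 FPKM. FASN (292.6 FPKM) and ACACA (121.1 FPKM) again came next, while ACLY and ACSS2, at 105.1 and 96.6 FPKM, stood above ACSL3 at 62.4 FPKM. Among all listed genes ranked by mean FPKM, SCD went from place 363 in control to 98 in BT-474 NRP-1 cells, FADS2 from 292 to 109 and FASN from 420 to 192.

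**Figure D1:**
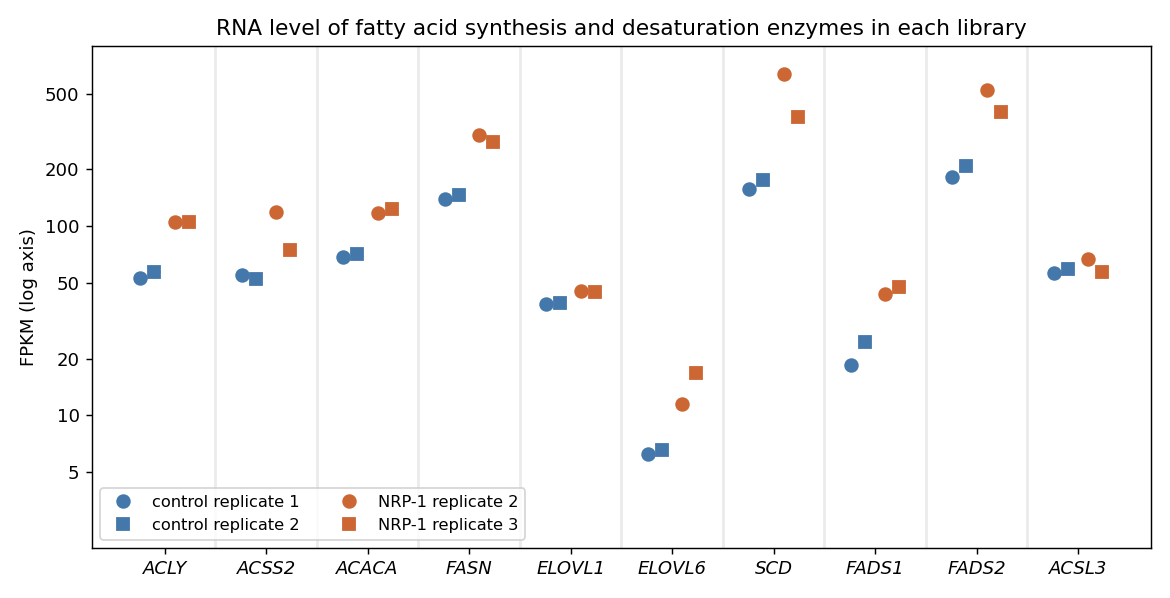
FPKM of the 10 enzymes in each library on a log axis, with control replicates in blue and NRP-1 replicates in orange, circles and squares marking the 2 libraries of a group. The NRP-1 points lie above both control points for 9 enzymes, and for ACSL3 they overlap.

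The sequences before the start sites of the genes are shown for SCD, with the highest ratio, for ACLY, which rose, and for ELOVL1 and ACSL3, which passed the test with neither edgeR nor DESeq2. They come from RefSeq in build GRCh38.p14 and hold the 250 bases before the annotated start, 5′ to 3′ on the strand of the gene. The table had windows for 9 of the 10 genes, 14 windows in all, and none for FASN. Capitals mark CCAAT, the box bound by NF-Y, and GGGCGG, the GC box bound by Sp1, on either strand, where the reverse strand reads ATTGG and CCGCCC.
SCD, chr10:100346983-100347232, plus strand: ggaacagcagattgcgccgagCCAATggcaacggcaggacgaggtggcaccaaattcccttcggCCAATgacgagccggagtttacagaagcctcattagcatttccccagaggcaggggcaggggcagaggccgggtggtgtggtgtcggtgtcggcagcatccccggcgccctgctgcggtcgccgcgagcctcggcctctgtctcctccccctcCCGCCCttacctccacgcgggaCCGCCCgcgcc
ACLY, chr17:41919023-41919272, minus strand: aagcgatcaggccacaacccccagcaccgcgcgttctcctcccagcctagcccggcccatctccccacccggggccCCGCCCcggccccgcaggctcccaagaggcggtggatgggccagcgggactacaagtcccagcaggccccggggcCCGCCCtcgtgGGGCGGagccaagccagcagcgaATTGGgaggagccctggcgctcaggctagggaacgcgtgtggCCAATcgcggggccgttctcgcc
ELOVL1, chr1:43368012-43368261, minus strand: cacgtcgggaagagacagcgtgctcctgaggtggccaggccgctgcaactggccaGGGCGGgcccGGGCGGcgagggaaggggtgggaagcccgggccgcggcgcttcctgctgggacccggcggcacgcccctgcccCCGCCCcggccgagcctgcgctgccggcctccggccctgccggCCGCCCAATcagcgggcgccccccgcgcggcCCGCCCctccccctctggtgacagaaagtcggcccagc
ACSL3, chr2:222860786-222861035, plus strand: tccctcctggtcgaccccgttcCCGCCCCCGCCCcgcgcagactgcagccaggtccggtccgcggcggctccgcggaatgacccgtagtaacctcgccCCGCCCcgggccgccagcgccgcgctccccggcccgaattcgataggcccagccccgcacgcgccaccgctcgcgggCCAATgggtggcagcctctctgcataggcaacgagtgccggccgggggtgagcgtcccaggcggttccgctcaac
The upstream stretches of SCD and ACLY hold 2 CCAAT matches each, and those of ELOVL1 and ACSL3 hold 1 each. GGGCGG matched 2 times in SCD, 3 times in ACLY, 5 times in ELOVL1 and 3 times in ACSL3, and in ELOVL1 a CCGCCC and the CCAAT share letters. The stretch before the other annotated start of ACLY, chr17:41918952-41919201, is not shown and held 2 CCAAT and 4 GGGCGG matches. Over the full windows, which also take in the first 50 transcribed bases, CCAAT was found in 7 of 9 genes (39.7% of 27305 genes with a window) and GGGCGG in 9 of 9 (48.3%). The genes without CCAAT were ELOVL6 and FADS1. The only match of FADS2, which rose, lay within the first 50 transcribed bases. Both upstream stretches of FADS2, not shown, held 0 CCAAT matches. Those of ACSS2 held 1 and 0, and those of ACACA held 2, 1 and 0, so the counts of the 4 genes shown do not stand for the others. A sterol regulatory element written as TCACNCCAC was in 0 of 14 windows (1.13% of 35116 windows hold it), as was its variant CACCCCAC (2.79%). Counted by gene, the E-box CANNTG was in 6 of 9 (73.1% of genes with a window), and by window in 6 of 14 (68.7%). None of the 14 windows held it in the form CACGTG (7.26% of windows). A match is a description of these letters only, and both boxes occurred in ACLY, which rose, as well as in ELOVL1 and ACSL3.

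Acetyl-CoA supply falls to ACLY and ACSS2, of which only the RNA was measured. ACLY, the citrate-cleaving enzyme, had 53.4 and 57.4 FPKM in the control libraries and 105.2 and 104.9 FPKM in the NRP-1 libraries. The groups lay far apart and the NRP-1 libraries were nearly equal, with means of 55.4 ± 2.79 FPKM (SD, n = 2) and 105.1 ± 0.247 FPKM (SD, n = 2). ACLY rose with a log2 fold change of 0.89 (standard error 0.12), with a Benjamini-Hochberg adjusted p of 0.0442 in edgeR's quasi-likelihood test. ACSS2, which activates acetate, had 55.4 and 52.8 FPKM in control and 118.6 and 74.6 FPKM in NRP-1 libraries. Its groups did not overlap, but NRP-1 replicate 2 was 1.59-fold above NRP-1 replicate 3, a wider gap than between the controls. For ACSS2 it was 0.80 on the log2 scale (standard error 0.22), edgeR's adjusted p was 0.115, and the value fell between 0.42 and 1.09 with each library left out, the lowest being without NRP-1 replicate 2. ACLY and ACSS2 had nearly equal levels in control cells, with a ratio of 0.965 and 1.09, and ratios of 0.887 and 1.41 in the NRP-1 libraries, which lie on either side of the control values.

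Carboxylation and chain assembly fall to ACACA and FASN. ACACA, which makes the malonyl-CoA that commits carbon to fatty acids, had 68.5 and 71.8 FPKM in control and 118.2 and 124.1 FPKM in NRP-1 libraries. The groups were well separated, at 70.1 ± 2.29 FPKM (SD, n = 2) in control against 121.1 ± 4.19 FPKM (SD, n = 2) with NRP-1. Its log2 fold change was 0.74 (standard error 0.12), with an edgeR adjusted p of 0.0561. The isoenzyme ACACB, which sits at mitochondria and regulates oxidation, was near 1 FPKM (0.790 and 1.02 in control, 1.04 and 1.73 in NRP-1 libraries), so that ACACA RNA exceeded it between 70.3-fold and 113.6-fold in every library. FASN, the multifunctional synthase, had 140.3 and 146.9 FPKM in control and 304.9 and 280.4 FPKM in NRP-1 libraries. Each NRP-1 library was between 1.91-fold and 2.17-fold above each control library. FASN rose with a log2 fold change of 0.99 (standard error 0.13), with a Benjamini-Hochberg adjusted p of 0.0442 in edgeR's quasi-likelihood test, and omitting any library gave a value from 0.92 to 1.05. The ratio of FASN to ACACA in FPKM was 2.05 in both control libraries and 2.58 and 2.26 in NRP-1 libraries.

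The elongases differed from each other. ELOVL6, which lengthens palmitate to stearate, had 6.28 and 6.56 FPKM in control and 11.5 and 16.9 FPKM in NRP-1 libraries. Here NRP-1 replicate 3 was the higher library, the reverse of ACSS2, SCD and FADS2. ELOVL6 had a log2 fold change of 1.08 (standard error 0.22) with an edgeR adjusted p of 0.0745, on 169 and 186 reads in control and 316 and 466 in NRP-1 libraries, the fewest of the 10 enzymes. ELOVL1, which extends very long saturated and monounsaturated chains, had 38.7 and 39.2 FPKM in control and 45.3 and 45.2 FPKM in NRP-1 libraries. The groups did not overlap, yet the gap was small, with a log2 fold change of 0.18 (standard error 0.12) and an edgeR adjusted p of 0.415. The ratio of ELOVL6 to ELOVL1 in FPKM went from 0.162 and 0.167 in control to 0.254 and 0.373 in NRP-1 libraries.

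SCD and FADS2 had the highest levels of the 10 enzymes in FPKM and the largest log2 fold changes. SCD, which makes oleate from stearate, had 158.2 and 175.0 FPKM in control and 641.1 and 379.8 FPKM in NRP-1 libraries. Both NRP-1 libraries stood above the controls, by between 2.17-fold and 4.05-fold, and they differed from each other by 1.69-fold. The log2 fold change of SCD was 1.58 (standard error 0.26), and its adjusted p was 0.0557 by edgeR's quasi-likelihood test. On the log2 scale the SCD difference came to 1.15 if NRP-1 replicate 2 was omitted and to 1.91 if NRP-1 replicate 3 was. SCD5, the second human stearoyl-CoA desaturase, had 17.3 and 15.4 FPKM in control and 16.5 and 13.7 FPKM in NRP-1 libraries, which overlap (log2 fold change -0.14, edgeR adjusted p = 0.637). SCD RNA was therefore 9.16-fold and 11.4-fold above SCD5 in control libraries, and 38.8-fold and 27.7-fold above it in NRP-1 libraries.

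FADS2, the first desaturase of the polyunsaturated pathway, had 183.4 and 207.8 FPKM in control and 525.6 and 404.0 FPKM in NRP-1 libraries. Its groups did not overlap (195.6 ± 17.3 FPKM and 464.8 ± 86.0 FPKM, SD, n = 2). FADS2 rose with a log2 fold change of 1.21 (standard error 0.17), with a Benjamini-Hochberg adjusted p of 0.0472 in edgeR's quasi-likelihood test. FADS1, which acts later in the same pathway, had 18.4 and 24.6 FPKM in control and 44.0 and 47.6 FPKM in NRP-1 libraries. The control libraries of FADS1 differed by 1.33-fold, the widest gap between controls among the 10, and both lay below the NRP-1 libraries. The log2 fold change of FADS1 was 1.06 (standard error 0.17) and its edgeR adjusted p was 0.0547. In FPKM, FADS2 exceeded FADS1 by 9.95-fold and 8.45-fold in control and by 11.9-fold and 8.49-fold in NRP-1 libraries, values that overlap between groups. FADS1 and FADS2 lie on opposite strands of chromosome 11, and the RefSeq starts of FADS2 fall 599 and 800 bases inside FADS1. Whether the reads were counted by strand is not given in the sources used here, so reads from that overlap cannot be told apart. The remaining family member, FADS3, had 18.5 and 17.4 FPKM in control and 10.6 and 9.73 FPKM in NRP-1 libraries, which gave -0.85 on the log2 scale with an edgeR adjusted p of 0.0680 and a DESeq2 adjusted p of 0.0274.

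ACSL3, the acyl-CoA synthetase of the endoplasmic reticulum and of growing lipid droplets, had 57.0 and 59.2 FPKM in control and 67.6 and 57.3 FPKM in NRP-1 libraries. It was the only one of the 10 whose groups overlapped. Its log2 fold change was 0.07 (standard error 0.13), with an edgeR adjusted p of 0.794, and it was -0.061 without NRP-1 replicate 2.

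**Figure D2:**
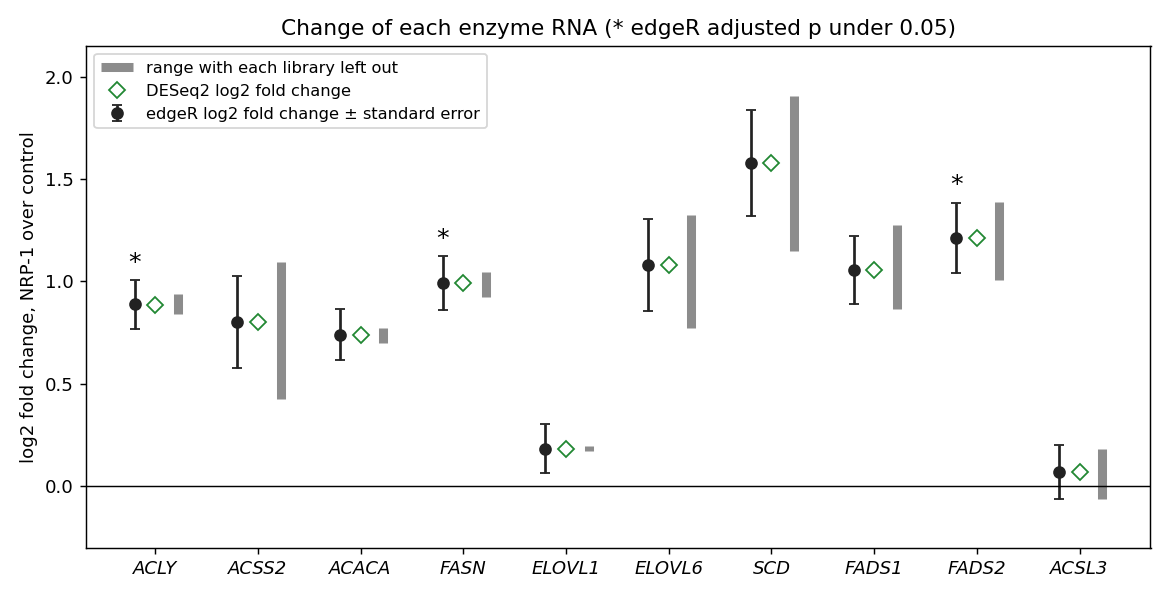
The log2 fold change of each enzyme, NRP-1 over control, from edgeR with its standard error (black), from DESeq2 (green) and as the range with each library left out (grey). ACLY, FASN and FADS2, marked with asterisks, have an edgeR adjusted p under 0.05, and only the range of ACSL3 crosses 0.

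By edgeR, 3 of the 10 enzymes had an adjusted p under 0.05 and a higher level in BT-474 NRP-1 cells (0.413% of all 14298 genes did), and 0 were lower (0.678% of all genes). At an unadjusted p under 0.05 all but ELOVL1 and ACSL3 were higher, 8 of 10, where 10.8% of all genes were higher and 12.1% lower. DESeq2 called the same 8 enzymes higher, where it called 2.86% of the genes it adjusted higher and 3.94% lower. In 9 of 10 enzymes both NRP-1 libraries lay above both control libraries in library-size scaled counts, which held for 27.9% of all tested genes. The median log2 fold change of the 10 enzymes was 0.94 against 0.02 over all genes tested, and 10 of 10 values were positive where 51.8% of all genes were. Because the enzymes were chosen with earlier results of these data known, these shares describe the 10 and do not test them as a set. The edgeR calls depended on single libraries. Without control replicate 1 or control replicate 2, 0 enzymes and 0 genes were called, while 6 and 7 enzymes still had an unadjusted p under 0.05. Without NRP-1 replicate 2 or NRP-1 replicate 3, 8 enzymes were called, among 18.5% and 13.5% of all genes called higher, and in each of these fits the lone library was assumed to vary like the pair that remained.

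Summed over the 10 enzymes, their RNA took 0.416% and 0.446% of all expected counts in control libraries and 1.04% and 0.829% in NRP-1 libraries. The summed level was 779.5 and 841.2 FPKM in control and 1982 and 1535 FPKM in NRP-1 libraries, 2.17-fold higher on average. SCD made up 20.3% and 20.8% of that sum in control and 32.3% and 24.7% in NRP-1 libraries. FASN, SCD and FADS2 together made up 61.8% and 63.0% in control and 74.3% and 69.3% in NRP-1 libraries. The share of FASN alone was 18.0% and 17.5% in control and 15.4% and 18.3% in NRP-1 libraries, which overlap. The NRP-1 replicates did not differ by 1 common factor across the enzymes. NRP-1 replicate 2 was above replicate 3 by 1.69-fold for SCD, 1.59-fold for ACSS2 and 1.30-fold for FADS2, was within 1.09-fold of it for FASN, ACLY, ACACA, FADS1 and ELOVL1, 1.18-fold above it for ACSL3, and was 0.682 of it for ELOVL6. Control replicate 2 lay between 0.954 and 1.33 times control replicate 1 for all 10.

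The other genes of fatty acid metabolism were counted in lists compiled by function, and limma on log2 FPKM called 0 genes in any of these lists. Of 13 other tested genes of fatty acid synthesis, 0 were higher and 1 was lower by edgeR (0 and 2 by DESeq2), with 1 higher and 2 lower at an unadjusted p under 0.05 and a median log2 fold change of -0.11. The gene that edgeR called was HSD17B8, a subunit of the ketoacyl reductase of mitochondrial fatty acid synthesis, with 291 and 247 reads in control and 99 and 107 in NRP-1 libraries (log2 fold change -1.44, edgeR adjusted p = 0.044). Of the 7 tested genes of the elongation cycle other than ELOVL1 and ELOVL6, edgeR and DESeq2 called 0, with 3 lower at an unadjusted p under 0.05. Those with the lowest p were HACD2, a dehydratase (log2 fold change -0.51, edgeR adjusted p = 0.121), and TECR, the final reductase (log2 fold change -0.38, edgeR adjusted p = 0.170). Both enzymes act with the elongases on the same chain. Of 12 other acyl-CoA synthetases, edgeR and DESeq2 called 0, with 2 higher and 3 lower at an unadjusted p under 0.05, and the median log2 fold change was -0.11.

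Of 9 tested genes that supply NADPH, the reductant of fatty acid synthesis, edgeR called 0 and DESeq2 called 1, with 1 gene at an unadjusted p under 0.05 and a median log2 fold change of 0.10. That gene was NNT, the mitochondrial transhydrogenase, with a log2 fold change of 1.0 and an edgeR adjusted p of 0.0998. PGD, of the pentose phosphate pathway, had a log2 fold change of 0.33 (edgeR adjusted p = 0.219). Of 24 genes of fatty acid oxidation, edgeR called 0 and DESeq2 called 2, both lower, with 3 higher and 3 lower at an unadjusted p under 0.05. The log2 fold changes of that list ran from -1.15 to 2.05, with a median of -0.07. The lowest p-values there belonged to ACADVL, the very long chain acyl-CoA dehydrogenase (log2 fold change -0.72, edgeR adjusted p = 0.0603), and EHHADH, a peroxisomal enzyme (log2 fold change -1.15, edgeR adjusted p = 0.0821). Of 22 genes of glycerolipid synthesis and lipid droplets, 0 were higher and 1 was lower by edgeR (1 and 1 by DESeq2), with 3 higher and 7 lower at an unadjusted p under 0.05 and a median log2 fold change of -0.24. The gene that edgeR called was DGAT2, which makes triacylglycerol, with 116 and 107 reads in control and 21 and 31 in NRP-1 libraries (log2 fold change -2.15, edgeR adjusted p = 0.0442). Only FABP5 of the 9 genes of fatty acid uptake and binding had enough reads for the test (log2 fold change 0.25, edgeR adjusted p = 0.733).

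Regulators of lipogenic transcription and the 6 tested subunits of AMP-activated kinase, which phosphorylates and inhibits ACACA, were counted next. Of the 14 regulators tested, 1 was higher and 0 were lower by edgeR (2 and 0 by DESeq2), with a median log2 fold change of -0.08. It was INSIG1, which holds the sterol regulatory element-binding proteins in the endoplasmic reticulum and is itself their target. INSIG1 had 344 and 473 reads in control and 1559 and 1184 in NRP-1 libraries (log2 fold change 1.69, edgeR adjusted p = 0.044). SREBF1, the main activator of fatty acid genes, had 46.8 and 49.2 FPKM in control and 63.9 and 52.6 FPKM in NRP-1 libraries. The SREBF1 groups did not overlap (log2 fold change 0.25, edgeR adjusted p = 0.346). SREBF2, the main activator of cholesterol genes, had 52.5 and 57.0 FPKM in control and 91.8 and 81.8 FPKM in NRP-1 libraries. Its groups did not overlap either, and its log2 fold change was 0.63 (edgeR adjusted p = 0.0728, DESeq2 adjusted p = 0.0104). SCAP, their escort protein, had a log2 fold change of -0.30 (edgeR adjusted p = 0.344). None of the kinase subunits was called by either tool or had an unadjusted p under 0.05, and those with the lowest p were PRKAG1 and PRKAB2, with log2 fold changes of -0.26 and 0.23.

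Cholesterol synthesis and uptake was the list whose median lay nearest to that of the 10 enzymes. Of its 24 genes, 15 were higher and 0 lower by edgeR (18 and 0 by DESeq2), with a median log2 fold change of 1.15. HMGCS1, which makes HMG-CoA from acetyl-CoA, had a log2 fold change of 2.05 (edgeR adjusted p = 0.0327). ACAT2, which makes acetoacetyl-CoA, and LSS, which cyclizes squalene epoxide, had log2 fold changes of 1.97 and 1.80 (edgeR adjusted p = 0.0376 and 0.0358). In the other 9 lipid lists together, 1 of 108 tested genes was higher and 2 were lower by edgeR (4 and 5 by DESeq2).

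**Figure D3:**
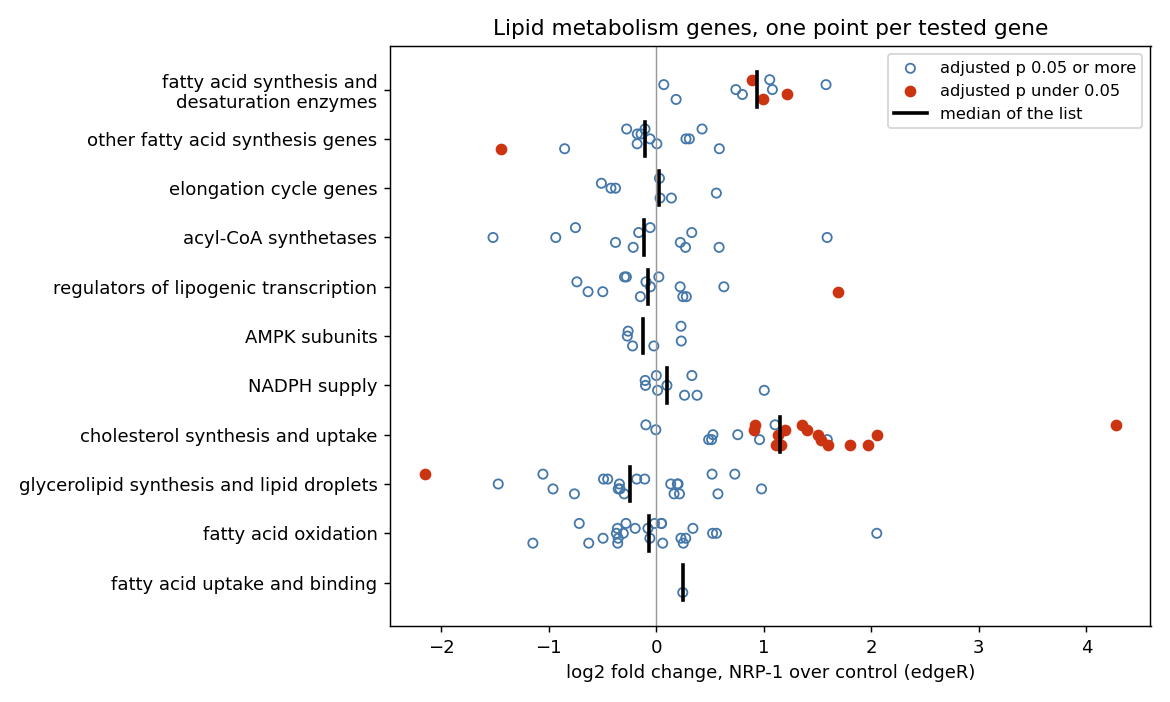
The log2 fold change, NRP-1 over control, of every tested gene in the 10 enzymes and 10 further lists of lipid metabolism, with filled red points for an edgeR adjusted p under 0.05 and a bar at the median of each list. The medians of the 10 enzymes (0.94) and of cholesterol synthesis and uptake (1.15) lie apart from those of the other lists, which run from -0.24 to 0.25.

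The genes lie on chromosomes 1, 2, 4, 10, 11, 17 and 20, and each was set beside the 10 nearest tested genes on either side in the RefSeq order. For FASN, ACACA and ACLY, all on chromosome 17, the median log2 fold change of the neighbours was -0.04, 0.09 and 0.01, and none of the 20 neighbours reached the enzyme's value. The same held for ACSS2, SCD, ELOVL6 and FADS2, with neighbour medians of 0.07, 0.18, 0.13 and -0.42. Around FADS1 only FADS2 was as high. Beside ELOVL1, 3 of 20 neighbours were at or above it, and beside ACSL3, 7 of 20 were.

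The genes whose pattern over the 4 libraries was nearest to the mean of the 10 enzymes were found by the Euclidean distance between centred log2 counts scaled to library size (CPM). The mean pattern was -0.48 and -0.37 in control and 0.49 and 0.36 in NRP-1 libraries. The nearest were GALNT10, a glycosyltransferase (distance 0.029), RBM3, a cold-inducible RNA-binding protein (0.043), DTNA, which encodes dystrobrevin alpha (0.044), the pseudogene PI4KAP2 (0.068) and VAMP1, a vesicle fusion protein (0.077). None of the 5 is in the lists of lipid genes. GALNT10 had 540 and 592 reads in control and 1138 and 1018 in NRP-1 libraries, with a log2 fold change of 0.87 (edgeR adjusted p = 0.0498). With 4 libraries in 2 groups, nearness in pattern is mostly nearness in the difference between groups.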

How the data were processed

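The comparison took 2 RNA libraries of BT-474 control cells and 2 of BT-474 NRP-1 cells, grouped by the sample titles. The authors mapped clean reads with HISAT/Bowtie2 and deposited, per gene and library, an expected count that is not normalized (32.8% of values above 0 were not whole within 0.005), an FPKM value and a transcript length. Expected counts of ACACA and FADS1 were not whole. The submitters' processing notes list bcl2fastq 2.16, HISAT2 2.0.1, Bowtie2 2.2.5 and RSEM, and the builds GRCh38 and hg19 without a role. The files hold no coordinates. A deposited table of the authors' comparison, with group means of FPKM, a log2 ratio and a probability score, was not used. Gene IDs were matched to RefSeq symbols of GRCh38.p14 (99.4%).

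After rounding, expected counts went into edgeR 4.0.16 under R 4.3.3 (filterByExpr, TMM with factors from 0.986 to 1.014, glmQLFit, glmQLFTest), modelled on group alone, and a gene was called at a Benjamini-Hochberg adjusted p under 0.05. For 1 gene in 2 against 2 libraries, the smallest p of an exact permutation test (two-sided) is 0.333. Standard errors are the absolute log2 fold change over the square root of F. The alternatives were DESeq2 1.42.0, no TMM, no filter, a stricter threshold, each library left out, and limma 3.58.1 on log2 FPKM with a pseudocount of 1 or 0.1, for genes whose mean reached 0.5 FPKM. The count tests were checked on simulated data.

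The 10 enzymes and the gene lists were chosen with earlier results of these data known. The genes named are NRP1, the 10 enzymes, ACACB, SCD5, SREBF1, SREBF2, SCAP and INSIG1, up to 4 called genes of each other lipid list with the largest change or, where none was called, the 2 with the lowest p, and the 5 nearest patterns. Some genes that these rules name are not reported here. FADS3, VIM and the other markers named were chosen after their values were seen. Python 3.11.15 and pandas 2.3.3 were used for tables and matplotlib 3.10.9 for plots.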

Additional observations from a re-analysis of the deposited data

How the results depend on the processing

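The main count of 3 enzymes called by edgeR became 8 with DESeq2, 0 without the filter on low counts, 0 with each of the 3 limma fits, 0 at an adjusted p up to 0.001 and a log2 change of 2 or more in either direction, and between 0 and 8 with each library left out. For the other lipid genes the count of 18 of 132 became 0 without the filter and 0 with each limma fit, and ran from 0 to 72 with each library left out. Over all genes the count of 156 became 953 with DESeq2, 0 without the filter, 7 and 3 with limma on log2(FPKM + 1) and log2(FPKM + 0.1), 0 with limma and no filter, 0 at the stricter threshold, and ran from 0 to 5414 with each library left out. In the fit without the filter and in the limma fits, 8 enzymes still had an unadjusted p under 0.05, and the cause of the lost calls was not tested. The direction of every enzyme was kept in all 60 comparisons under other tools, scalings or filters, and in all but 1 of 40 that left out a library, where ACSL3 ran from -0.061 (without NRP-1 replicate 2) to 0.18. FABP5 ran from -0.11 to 0.69, below 0 without control replicate 2 or NRP-1 replicate 3. No paired analysis was possible because the groups share only replicate number 2. The calls rest on 2 libraries a group, and the fits that leave out a library rest on 1 library in that group.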
